A study of Mus musculus with 6 samples.

Results

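The genes described here encode the Golgi enzymes that build and sulfate the sugar chains of glycoproteins, glycolipids and proteoglycans. They were the protein-coding genes of the deposited table whose symbols begin with St3gal, St6gal, St8sia, B3gnt, B3galt, B4galt, Galnt, Fut, Mgat, Gcnt, Chst, Hs3st, Hs6st or Ndst. This rule, which uses no expression value, found 84 of the 22239 genes in the table, under 83 symbols and in 15 enzyme families, because St6galnac2 stood on 2 gene identifiers. The largest families were Galnt with 14 genes, B3gnt with 9 and Fut with 8. The genes were compared between 3 populations of mouse lung epithelial cells, each measured in 2 samples.

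Bronchioalveolar stem cells (BASC) were sorted by FACS as positive for both reporters, CCSP-mCherry and SPC-YFP. The SPC-YFP positive cells were alveolar type 2 (AT2) cells, the surfactant producers of the alveolus. The CCSP-mCherry positive cells were Club cells, secretory cells of the small airways. The reporters were read at their endogenous expression, and all 3 groups came from lung homogenates depleted of CD31 and CD45 positive cells, from mice aged 8 weeks. RNA was amplified from picogram inputs with a stranded total RNA kit. The labels give no strain, sex or number of animals and do not say whether replicates came from separate mice, so p-values measure the spread between these samples, which may be technical.

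Sugar chains are assembled step by step in the Golgi, each enzyme adding 1 sugar or sulfate to a chain that an earlier enzyme made. N-glycans on asparagine are branched by the Mgat enzymes, mucin-type O-glycans are started by the Galnt enzymes and branched by the Gcnt enzymes, and the B4galt, B3galt and B3gnt enzymes lengthen the branches. Fut enzymes add fucose and the St3gal, St6gal, St6galnac and St8sia enzymes cap the ends with sialic acid. Heparan sulfate, the sugar chain of many cell surface and basement membrane proteoglycans, is sulfated by the Ndst, Hs6st and Hs3st enzymes. In the lung these chains coat the airway surface and its mucins and form part of the alveolar glycocalyx.

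Expression is given as the authors' normalised counts, which are whole numbers scaled per sample. From the steps between low values, the reads behind the table were estimated at 10121884 to 18203252 per sample, and a listed 0 leaves room for up to 3 reads, or 2.29 to 4.02 normalised counts. The 8 AT2 markers, Sftpc among them, summed to 948683 to 961995 in BASC, 1020271 to 1114998 in AT2 cells and 77439 to 95640 in Club samples. The 7 Club markers, Scgb1a1 among them, summed to 71085 to 88097 in BASC, 5858 to 6695 in AT2 cells and 1048113 to 1059097 in Club samples. The markers thus followed the sort labels in every library. Sftpc and Scgb1a1 are the genes of the SPC and CCSP reporters, so these sums are no independent check of the sort. The Club samples also held the most ciliated cell markers, 6048 to 6145 over 8 genes against 783 to 902 in BASC and 758 to 774 in AT2, where Rsph1, Tekt1 and Ccdc113 were at 0. Goblet cell markers, 6 genes, summed to 1809 to 1950 in BASC, 715 to 1006 in AT2, where Muc5ac and Tff2 were at 0, and 8545 to 9670 in Club samples. Markers of alveolar type 1 cells, 6 genes, ran the other way, at 11915 to 12190 in BASC and 11891 to 14283 in AT2 against 4564 to 4635 in Club samples. Of these, 2 were called higher in BASC and 3 in AT2 than in Club cells, and Pdpn, at 0 in BASC, was lower in both. The part of these other cells in the differences from Club cells below was not tested, and in bulk RNA fewer cells of a type and less RNA per cell cannot be told apart.

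Of the 84 genes, 72 had at least 10 normalised counts in at least 2 samples and were tested with limma on log2(normalised count + 1), with Benjamini-Hochberg adjustment of the p-values over the 17721 genes that passed this filter. A gene was called at an adjusted p under 0.05. Between BASC and AT2 cells 1 of the 72 genes was higher in BASC and 0 were lower, where 0.553% and 0.0790% of all tested genes were called in these directions. At an unadjusted limma p under 0.05, 9 were higher and 5 lower, against 1257 and 1079 of the 17721 genes. Between BASC and Club cells 9 were higher in BASC (12.5% of those tested, against 5.77% of all genes) and 15 were lower (20.8%, against 5.42%). Between AT2 and Club cells 15 were higher in AT2 (20.8%, against 8.42%) and 22 were lower (30.6%, against 9.71%). Of the 72 genes, 10 passed the filter through the Club samples alone (B3galt1, B3gnt4, B3gnt7, Chst11, Fut9, Galnt6, Galnt10, Gcnt1, Hs6st2 and Hs6st3) and could hardly be called other than lower, so the shares called lower are no measure of the enzyme genes as a whole. They gave 7 of the 15 genes lower in BASC and 7 of the 22 lower in AT2, and without them 8 and 15 of 62 genes were lower. St6galnac3 passed through the AT2 samples alone and is 1 of the 15 genes higher in AT2. The comparisons of BASC and of AT2 with Club cells share the Club samples. The median log2 fold change of the tested enzyme genes was 0.03, -0.28 and -1.05 in these 3 comparisons, and that of all tested genes was 0, -0.10 and -0.10. The enzyme medians against Club cells include the 10 genes that passed through the Club samples alone. They are therefore no measure of a shift of the enzyme genes as a whole. In all, 40 enzyme genes were called in at least 1 comparison and 32 in none.

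Medians of the enzyme groups rest on few genes each and include the genes that passed the filter through the Club samples alone. Some of their signs turn on such genes, so they are no measure of a group as a whole. The sialyltransferase medians count St6galnac2 on both identifiers and St6galnac3, which passed through the AT2 samples alone. By family, the AT2 against Club median was -0.12 over 6 St3gal, 5.80 over 5 St6galnac and -8.07 over 2 St8sia rows, and -1.38 for St6gal1. In BASC against Club cells the median log2 fold change was 0.97 over the 14 tested sialyltransferases (0.64 with genes at 0 set to their bound), 0.61 over 5 Fut genes and -0.24 over 19 B3galt, B3gnt and B4galt genes. It was -0.36 over 12 Galnt genes, -1.25 over 6 Mgat genes, -1.37 over 9 heparan sulfate genes, -2.23 over 3 Gcnt genes and -0.84 over 4 Chst genes. In AT2 against Club cells the medians were 1.11 for the sialyltransferases, -0.29 for Fut, -1.05 for B3galt, B3gnt and B4galt, -0.91 for Galnt, -1.02 for Mgat, -1.56 for heparan sulfate, -4.46 for Gcnt and -1.59 for Chst genes. Between BASC and AT2 cells the medians lay between -0.15 for Fut and 2.23 for Gcnt genes.

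**Figure D1:**
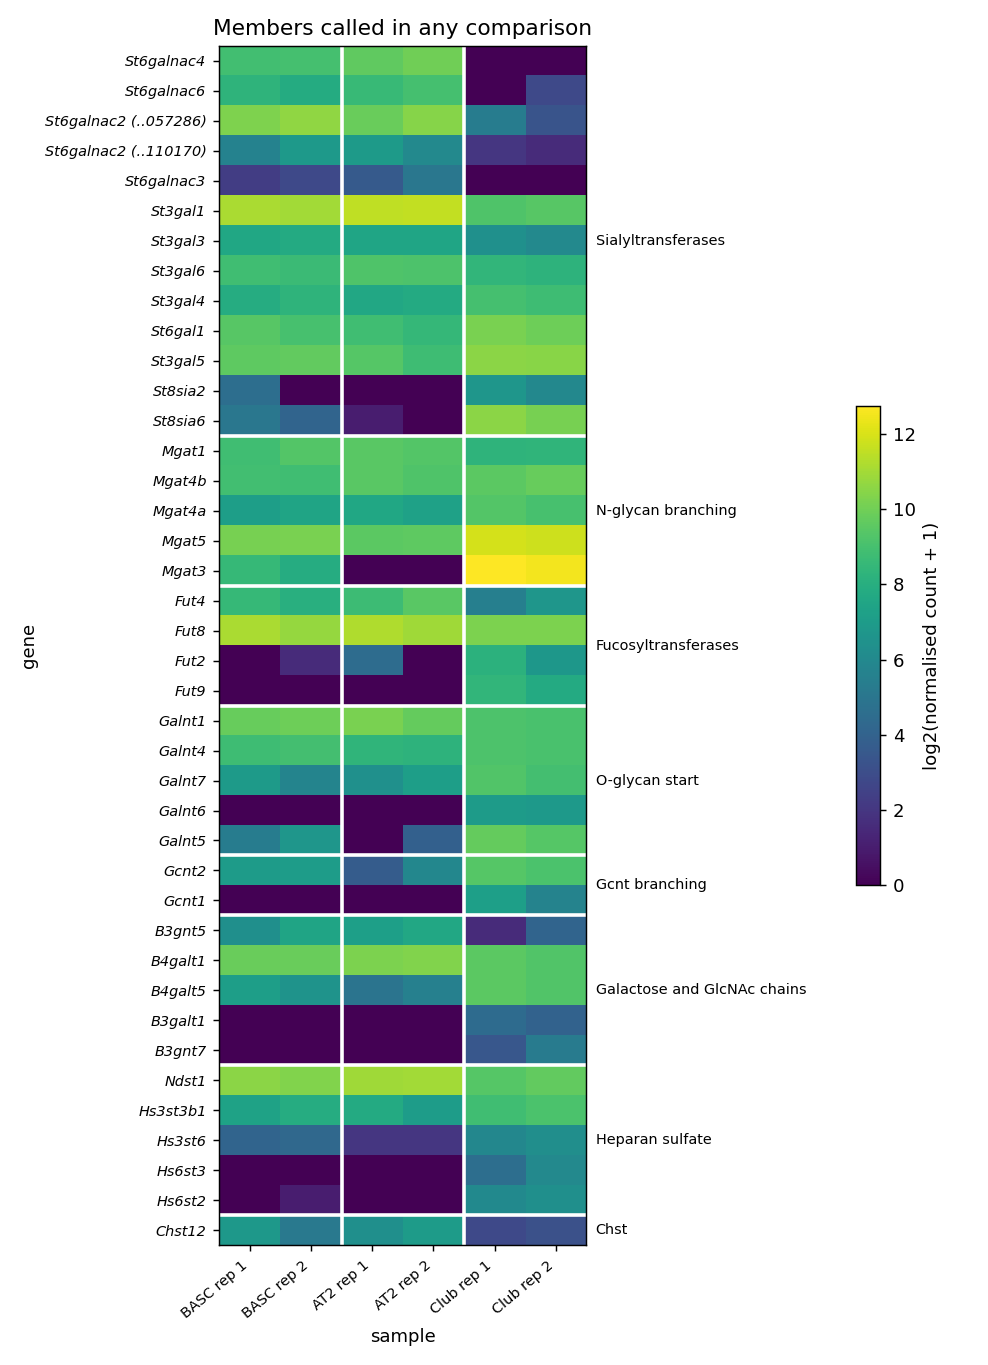
Heat map of log2(normalised count + 1) of the 40 enzyme genes called in at least 1 comparison (rows, by enzyme group and, within it, by the fitted AT2 against Club difference) in the 6 samples (columns). St6galnac2 is shown for both of its gene identifiers by their last digits; Mgat3 is at 0 in both AT2 columns and St6galnac4 in both Club columns, while Fut9 is at 0 in the BASC and AT2 columns.

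These calls rested on single libraries to a varying degree. Calls over all tested genes also fell in each of the fits counted here, so the drops were not particular to the enzyme genes. Without BASC replicate 1 or BASC replicate 2, 3 genes were called higher in BASC than in Club cells, and without Club replicate 1, 4 were. The genes called lower in BASC than in Club cells numbered 7 without BASC replicate 2, 2 without Club replicate 1 and 4 without Club replicate 2. For AT2 against Club cells, 7 and 9 were called higher without AT2 replicates 1 and 2, and 9 and 8 without Club replicates 1 and 2. Those called lower in AT2 than in Club cells numbered 7 and 9 without Club replicates 1 and 2. Of the 62 called differences, 24 were called in every such fit that tested them, and for the others the libraries are named below with the adjusted p without them. B3galt1, B3gnt7, Fut9, Galnt6, Gcnt1, Hs6st2 and Hs6st3 did not pass the filter without either Club replicate, nor did St6galnac3 without either AT2 replicate, and were not tested there. Without the variance trend many of the same calls were lost, and besides them those of St3gal5 in AT2 (limma adjusted p = 0.0603) and, among the partner genes below, of Hs2st1 (0.0610), Sdc4 (0.0782) and Man1a (0.0558) in BASC and Man2a2 (0.0529) in AT2.

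Among the N-glycan branching enzymes, Mgat3 separated the 3 populations and Mgat5 and Mgat4a were highest in Club cells. Mgat3 makes the bisecting N-acetylglucosamine, which hinders further branching, while Mgat4a, Mgat4b and Mgat5 add the outer branches of complex N-glycans. Mgat3 had 371 and 235 normalised counts in BASC, 0 and 0 in AT2 cells and 6853 and 5962 in Club cells. The 3 groups did not overlap. Mgat3 was at least 110-fold higher in BASC than in AT2 cells (limma adjusted p = 0.000611), where 3 reads per library stand in for the AT2 value. Set against Club cells it was 21.1-fold lower in BASC (adjusted p = 0.00101, log2 fold change -4.43 ± 0.43 SE) and at least 2330-fold lower in AT2 (adjusted p = 6.62e-06). Mgat3 was the only one of the 72 genes called between BASC and AT2 cells, and the call was lost without BASC replicate 1 (adjusted p = 0.0575) and in a fit of those 2 groups alone (0.209).

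BASC held 4.73% of the Club level of Mgat3. Of 3 genes of the Club marker list, BASC held 6.80% of the Club level of Scgb1a1, the gene of the CCSP reporter, 13.1% of Cyp2f2, a xenobiotic-metabolising cytochrome, and 1.43% of Scgb3a2, another secretoglobin. For the goblet cell mucin Muc5ac the share was 2.14%. The Mgat3 share lay between those of Scgb3a2 and Scgb1a1. These genes were picked from longer marker lists whose other genes were not read this way, and the source of Mgat3 RNA in BASC was not tested.

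Mgat5 had 1119 and 1139 normalised counts in BASC, 743 and 764 in AT2 cells and 3836 and 3452 in Club cells. It was 3.23-fold lower in BASC than in Club cells (log2 fold change -1.69 ± 0.14 SE, limma adjusted p = 0.000383) and 4.84-fold lower in AT2 (-2.27 ± 0.14, adjusted p = 5.56e-05). BASC lay 1.5-fold above AT2 cells, which was not called (adjusted p = 0.133). Mgat4a had 141 and 170 in BASC, 189 and 155 in AT2 cells and 646 and 517 in Club cells, so BASC and AT2 overlapped and both lay under Club cells, by 3.74-fold (adjusted p = 0.00816) and 3.38-fold (adjusted p = 0.00715). The first of these calls was lost without BASC replicate 1 (0.0503) or Club replicate 1 (0.10), and the second without Club replicate 1 (0.0932).

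Mgat1 and Mgat2, which open the pathway, ran the other way or were close to level, while Mgat4b was lowest in BASC. Mgat1, which starts hybrid and complex N-glycans, had 458 and 653 normalised counts in BASC, 709 and 639 in AT2 cells and 316 and 328 in Club cells, and was 2.09-fold higher in AT2 than in Club cells (limma adjusted p = 0.0220). That call was lost without either AT2 or either Club replicate (adjusted p = 0.0700 to 0.114). Mgat2, which follows Mgat1, had 549 and 561 in BASC, 522 and 548 in AT2 cells and 424 and 364 in Club cells and was called in no comparison. Mgat4b had 477 and 448 in BASC, 725 and 603 in AT2 cells and 735 and 891 in Club cells. It was 1.76-fold lower in BASC than in Club cells (adjusted p = 0.0456), a call that was lost on leaving out any 1 of the BASC, AT2 or Club replicates (0.0523 to 0.368).

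Per kilobase of exon, which allows levels to be compared between genes, the 6 Mgat genes summed to 681 and 692 in BASC, 703 and 653 in AT2 cells and 2390 and 2190 in Club cells. In Club cells Mgat3 made up 60.0% of the mean sum and Mgat5 15.5%. In BASC Mgat2 led with 30.9% and Mgat4b followed with 24.8%, and in AT2 cells Mgat4b led with 36.0% and Mgat2 followed with 30.2%.

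**Figure D2:**
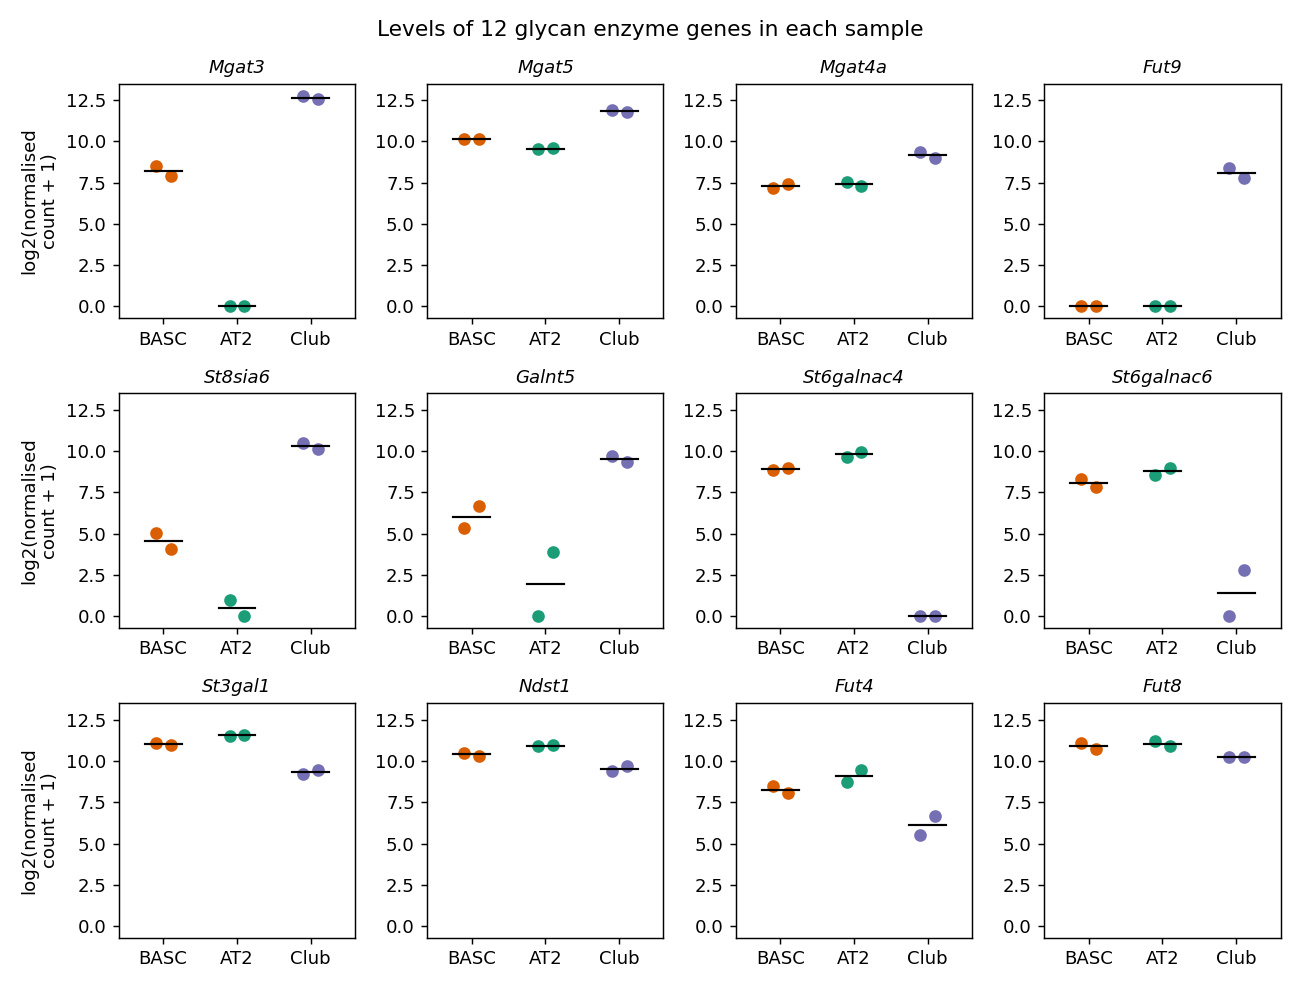
Normalised counts of 12 enzyme genes on a log2(normalised count + 1) axis, with 1 point per sample and a line at the group mean (n = 2 each) for BASC, AT2 and Club cells. Mgat3 is at 0 in AT2 and highest in Club cells, St6galnac4 is at 0 in Club cells, and Fut9 is at 0 in BASC and AT2 cells.

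Sialyltransferases were called in both directions. All 5 tested St6galnac rows were higher in AT2 than in Club cells and 4 of 5 were higher in BASC. These rows count St6galnac2 on both identifiers. They also hold St6galnac3, which passed the filter through the AT2 samples alone and could hardly be called other than higher in AT2. Both tested St8sia genes were lower in AT2 than in Club cells and 1 of these, St8sia6, was lower in BASC. Over all tested genes, 8.42% were called higher and 9.71% lower in AT2, and 5.77% and 5.42% in BASC. The St6galnac enzymes add sialic acid to the first sugar of O-glycans or to gangliosides, and the St8sia enzymes add sialic acid to sialic acid. The promoters of 1 gene of each direction are shown with that of Mgat5, since each of the 3 was called between AT2 and Club cells in every alternative run and has a listed start. The sequences are the RefSeq windows of GRCm38.p6, from 250 bases before to 50 bases after the listed start, written 5′ to 3′ in the direction of the gene, with matches of the searched motifs on either strand in capitals.
St6galnac4, chr2:32586828-32587127, plus strand: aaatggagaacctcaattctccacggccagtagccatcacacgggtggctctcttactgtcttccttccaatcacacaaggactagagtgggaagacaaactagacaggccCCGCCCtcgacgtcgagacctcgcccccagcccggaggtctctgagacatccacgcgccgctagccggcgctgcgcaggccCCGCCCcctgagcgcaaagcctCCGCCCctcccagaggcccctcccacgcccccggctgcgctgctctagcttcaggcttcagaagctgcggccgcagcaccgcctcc
St8sia6, chr2:13793471-13793770, minus strand: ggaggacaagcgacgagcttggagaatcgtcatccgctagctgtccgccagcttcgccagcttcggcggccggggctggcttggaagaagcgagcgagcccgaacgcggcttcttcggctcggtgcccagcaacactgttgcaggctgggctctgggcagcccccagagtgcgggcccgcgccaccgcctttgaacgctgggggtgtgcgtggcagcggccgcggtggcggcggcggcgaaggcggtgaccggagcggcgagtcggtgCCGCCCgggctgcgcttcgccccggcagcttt
Mgat5, chr1:127204736-127205035, plus strand: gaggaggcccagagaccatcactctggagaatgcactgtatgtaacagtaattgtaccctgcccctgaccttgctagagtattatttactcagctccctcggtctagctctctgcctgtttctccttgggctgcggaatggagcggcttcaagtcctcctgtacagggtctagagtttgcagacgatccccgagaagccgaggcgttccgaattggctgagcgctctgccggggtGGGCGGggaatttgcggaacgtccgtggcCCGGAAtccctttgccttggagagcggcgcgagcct
The motifs searched were the GC box GGGCGG, the ETS core CCGGAA, the NKX2 core CAAGTG and the FOX core TGTTTAC. St6galnac4 held 3 GC boxes, St8sia6 held 1, and Mgat5 held 1 GC box and 1 ETS core, with no overlap between motifs. Of 32851 listed promoters, 35.7% held a GC box, 14.9% the ETS core, 13.6% the NKX2 core and 3.6% the FOX core. Of the genes called between AT2 and Club cells, 8 of 10 with a listed promoter among those higher in AT2 held a GC box, and 14 of 18 among those lower. The ETS core was in 2 of the 10 and 4 of the 18, the NKX2 core in 2 and 0, and the FOX core in 1 and 0. In these counts a gene with several listed promoters counts if any of them holds the motif, while the shares are over single promoters, so they are unlike measures. The sequences shown are 1 window per gene, and the matches describe letters only. The listed start can differ from that of the deposited gene, which for St8sia6 reaches 13794064 on chromosome 2.

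St6galnac4, whose enzyme adds sialic acid to O-glycans that already carry 1, had 473 and 501 normalised counts in BASC, 796 and 1007 in AT2 cells and 0 and 0 in Club cells. It was at least 174-fold higher in BASC (limma adjusted p = 8.49e-05) and at least 323-fold higher in AT2 (adjusted p = 3.47e-05) than in Club cells. Its neighbour St6galnac6, an enzyme of ganglioside sialylation, had 313 and 228 in BASC, 383 and 505 in AT2 cells and 0 and 6 in Club cells. Both genes were thus near or at 0 in Club cells and well above 0 in BASC and AT2 cells. They lie in line on the plus strand of chromosome 2 in the deposited coordinates, St6galnac4 from 32587095 to 32599698 and St6galnac6 from 32599709 to 32620806 (GRCm38). St6galnac6 was 90.2-fold higher in BASC than in Club cells (adjusted p = 0.00511, lost without BASC replicate 1 at 0.0618 or BASC replicate 2 at 0.0562) and 148-fold higher in AT2 (adjusted p = 0.00200).

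St6galnac2, which acts on mucin-type O-glycans, had 1235 and 1569 normalised counts in BASC, 910 and 1388 in AT2 cells and 40 and 9 in Club cells under its main gene identifier. It was 57.2-fold higher in BASC than in Club cells (limma adjusted p = 0.00116) and 46.9-fold higher in AT2 (adjusted p = 0.000873). Its second identifier, which shares 383 exon bases with the first on the same strand, had 50 and 114 in BASC, 121 and 62 in AT2 cells and 3 and 2 in Club cells, so its reads may be split with the first and it is uncertain as a gene of its own. It was called higher in BASC (adjusted p = 0.0231, lost without either BASC or either Club replicate at 0.0531 to 0.0969) and in AT2 (adjusted p = 0.0131, lost without AT2 replicate 1 at 0.0648). St6galnac3 was low throughout, with 4 and 6 in BASC, 11 and 32 in AT2 cells and 0 and 0 in Club cells. It was at least 7.69-fold higher in AT2 than in Club cells (adjusted p = 0.0359, lost without Club replicate 1 at 0.324 or Club replicate 2 at 0.326).

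St3gal1, which caps the core galactose of mucin-type O-glycans, was the St3gal gene with the highest mean count. It had 2229 and 1980 normalised counts in BASC, 2964 and 3059 in AT2 cells and 592 and 695 in Club cells. It was 3.27-fold higher in BASC (log2 fold change 1.71 ± 0.15 SE, limma adjusted p = 0.000535) and 4.68-fold higher in AT2 (2.23 ± 0.15, adjusted p = 8.66e-05) than in Club cells, called in every alternative run. St3gal3 and St3gal6, which cap lactosamine chains, were weaker. St3gal3 had 190 and 222 in BASC, 179 and 178 in AT2 cells and 82 and 63 in Club cells, and its 2.84-fold higher level in BASC (adjusted p equal to 0.05 after rounding) was lost without any 1 of the BASC, AT2 or Club replicates (0.0636 to 0.306). St3gal6 had 450 and 408 in BASC, 609 and 578 in AT2 cells and 329 and 300 in Club cells. It was 1.89-fold higher in AT2 (adjusted p = 0.0240), a call lost without either AT2 or either Club replicate (0.0702 to 0.187), and 26.0% of its exon bases overlap Dcbld2 on the other strand.

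In the opposite direction stood sialyltransferases of N-glycans, of glycolipids and of sialic acid chains. St3gal5, the synthase of the ganglioside from which the longer ones are built, had 753 and 828 normalised counts in BASC, 661 and 438 in AT2 cells and 1467 and 1402 in Club cells and was 2.61-fold lower in AT2 than in Club cells (limma adjusted p = 0.00527). St6gal1, which caps N-glycans, had 702 and 531 in BASC, 463 and 355 in AT2 cells and 1166 and 962 in Club cells, 2.6-fold lower in AT2 (adjusted p = 0.00739, lost without Club replicate 1 at 0.0536). St3gal4, a further lactosamine-capping enzyme, had 233 and 308 in BASC, 201 and 219 in AT2 cells and 506 and 439 in Club cells. It was 2.25-fold lower in AT2 (adjusted p = 0.0253, lost without either AT2 or either Club replicate at 0.0691 to 0.219). None of these 3 was called between BASC and Club cells, although both BASC samples lay under both Club samples for each.

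St8sia6, which puts a second sialic acid on O-glycans, had 32 and 16 normalised counts in BASC, 1 and 0 in AT2 cells and 1452 and 1105 in Club cells. It was 53.3-fold lower in BASC than in Club cells (log2 fold change -5.74 ± 0.85 SE, limma adjusted p = 0.00612, lost without Club replicate 1 at 0.112 or Club replicate 2 at 0.0774). In AT2 cells it was lower too (adjusted p = 0.000323), with no fold given, since the AT2 samples held about 1 read in all. St8sia2, a polysialyltransferase known from the nervous system, had 23 and 0 in BASC, 0 and 0 in AT2 cells and 104 and 60 in Club cells. It was at least 29.8-fold lower in AT2 than in Club cells (adjusted p = 0.0338, lost without either AT2 or either Club replicate at 0.112 to 0.267) and was not called between BASC and Club cells (adjusted p = 0.174).

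Summed per kilobase of exon, the 17 sialyltransferase rows came to 1400 and 1440 in BASC, 1460 and 1460 in AT2 cells and 1380 and 1230 in Club cells, so the sums lay close together while the make-up differed. St3gal1 led in BASC with 21.6% and in AT2 with 30.1% of the mean sum. In Club cells St3gal5 led with 42.0%, followed by St6gal1 with 16.6% and St8sia6 with 12.8%.

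**Figure D3:**
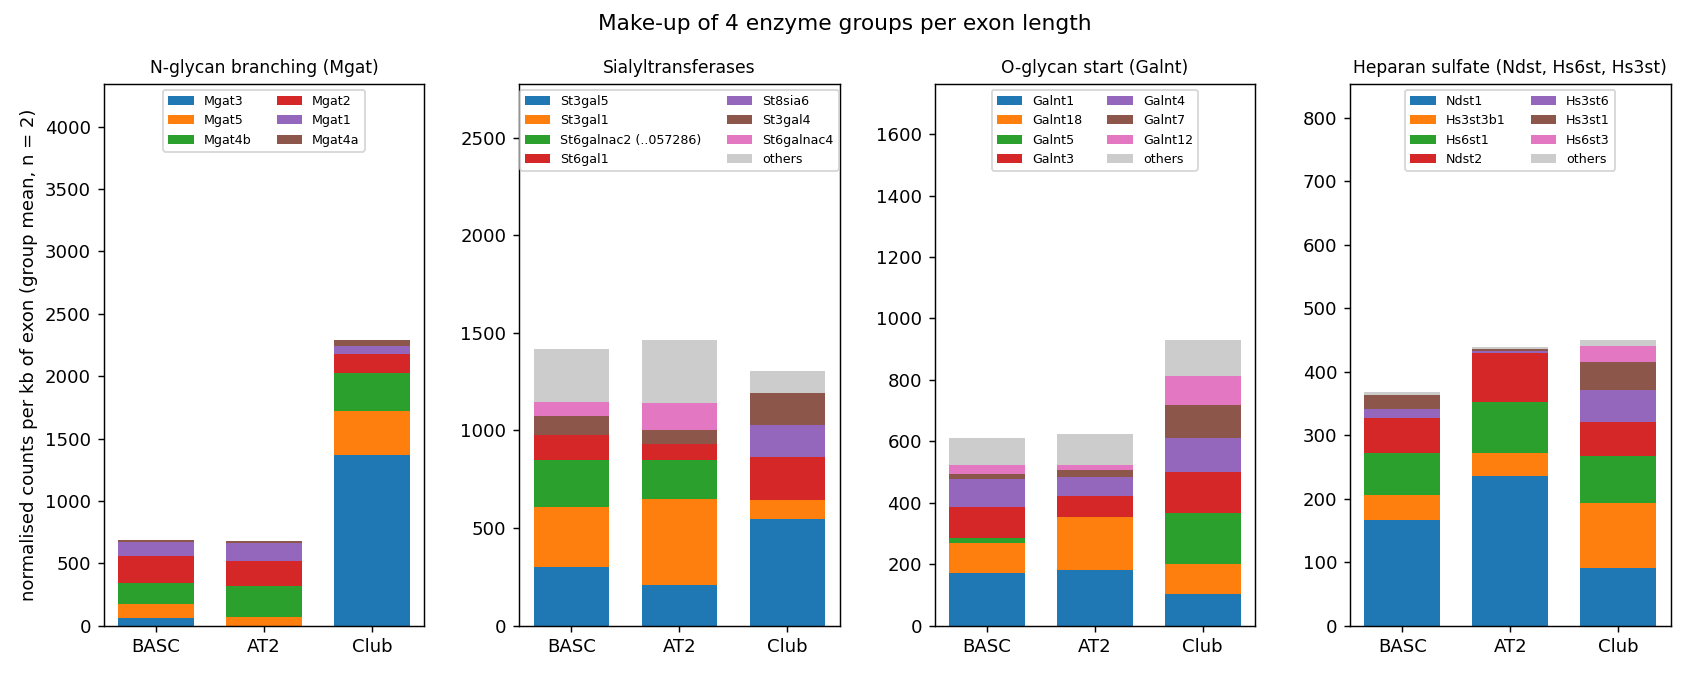
Stacked bars of the mean normalised count per kilobase of exon (n = 2 samples per group) for the Mgat, sialyltransferase, Galnt and heparan sulfate enzyme genes in BASC, AT2 and Club cells, with the 7 genes highest in any group named in each panel where there are more, and the others in grey. Each panel has its own axis from 0; Mgat3 makes up 60.0% of the Mgat bar of Club cells, and the sialyltransferase bars are of like height with different parts.

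Fucosyltransferases, too, were called both higher and lower. Fut8, which puts the core fucose on N-glycans, was the family member with the highest mean count, with 2208 and 1689 normalised counts in BASC, 2352 and 1945 in AT2 cells and 1211 and 1219 in Club cells. It was 1.77-fold higher in AT2 than in Club cells (limma adjusted p = 0.0191, lost without AT2 replicate 1, Club replicate 1 or Club replicate 2 at 0.0668 to 0.0923). Fut4 and Fut9 both make the Lewis X structure and stood in opposite directions. Fut4 had 364 and 262 in BASC, 419 and 704 in AT2 cells and 45 and 101 in Club cells, 4.29-fold higher in BASC (adjusted p = 0.0288, lost without BASC replicate 1, BASC replicate 2 or Club replicate 1 at 0.103 to 0.149) and 7.69-fold higher in AT2 (adjusted p = 0.00535).

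Fut9 had 0 and 0 normalised counts in BASC, 0 and 0 in AT2 cells and 332 and 221 in Club cells. It was at least 81.7-fold lower in BASC (limma adjusted p = 0.00346) and at least 101-fold lower in AT2 (adjusted p = 0.00213) than in Club cells. Fut2, the enzyme that makes the H antigen on mucosal surfaces and secretions, had 0 and 2 in BASC, 22 and 0 in AT2 cells and 290 and 108 in Club cells. It was lower in BASC than in Club cells (log2 fold change -6.68 ± 1.65 SE, adjusted p = 0.0441), a call lost without either BASC or either Club replicate (0.119 to 0.326). Fut11, with 352 and 434 in BASC, 292 and 149 in AT2 cells and 188 and 347 in Club cells, was called in no comparison.

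Of the Galnt enzymes that start mucin-type O-glycans, 4 of 12 tested were lower in AT2 than in Club cells and 1 was higher, and 2 were lower in BASC. Galnt6, lower in both, passed the filter through the Club samples alone and could hardly be called otherwise. Over all tested genes, 9.71% were lower and 8.42% higher in AT2, and 5.42% were lower in BASC. Galnt5 had 40 and 101 normalised counts in BASC, 0 and 14 in AT2 cells and 838 and 664 in Club cells, with no overlap between the 3 groups. It was 107-fold lower in AT2 than in Club cells (log2 fold change -7.59 ± 1.25 SE, limma adjusted p = 0.00619) and was not called between BASC and Club cells or between BASC and AT2 cells (adjusted p = 0.221). Galnt6 had 0 and 0 in BASC, 0 and 0 in AT2 cells and 125 and 116 in Club cells, at least 35.6-fold lower in BASC (adjusted p = 0.00647) and at least 43.8-fold lower in AT2 (adjusted p = 0.00415). Galnt5 kept its AT2 call in every alternative. Galnt6 kept its calls in every alternative that tested it, none of which left out a Club replicate.

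Galnt7 and Galnt4 extend peptides that already carry O-glycans. Galnt7 had 123 and 53 normalised counts in BASC, 84 and 142 in AT2 cells and 624 and 493 in Club cells. It was 6.35-fold lower in BASC (limma adjusted p = 0.0151, lost without BASC replicate 2 at 0.0682 or Club replicate 1 at 0.0935) and 4.94-fold lower in AT2 (adjusted p = 0.0194, lost without AT2 replicate 1, Club replicate 1 or Club replicate 2 at 0.0629 to 0.122). Galnt4 had 437 and 482 in BASC, 318 and 303 in AT2 cells and 580 and 540 in Club cells, 1.80-fold lower in AT2 (adjusted p = 0.0307, lost without either AT2 or either Club replicate at 0.0712 to 0.256). The BASC samples lay between the other groups for Galnt4, and 8.3% of its exon bases overlap Poc1b on the same strand. Galnt1, a broadly expressed family member, had 883 and 989 in BASC, 1164 and 843 in AT2 cells and 577 and 547 in Club cells. It was 1.79-fold higher in AT2 (adjusted p = 0.0328), a call lost without any library other than AT2 replicate 2 (0.0572 to 0.162).

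Per kilobase of exon the 14 Galnt genes summed to 570 and 655 in BASC, 613 and 632 in AT2 cells and 1000 and 857 in Club cells. Of the exon bases of Galnt2, 90.0% overlap Gm20388 on the same strand, so its counts and its part of these sums are uncertain. Galnt1 led in BASC with 27.7% and in AT2 with 29.2% of the mean sum, and Galnt5 led in Club cells with 18.1%. Galnt3, with 324 and 581 normalised counts in BASC, 284 and 314 in AT2 cells and 589 and 587 in Club cells, and Galnt18, with 299 and 208, 393 and 490, and 306 and 194 in BASC, AT2 and Club cells, were called in no comparison.

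Of the 3 tested Gcnt branching enzymes, 2 were lower in AT2 than in Club cells and 1 of these, Gcnt1, also in BASC. Gcnt1 passed the filter through the Club samples alone and could hardly be called other than lower. Over all tested genes, 9.71% were lower in AT2 and 5.42% in BASC. Gcnt1, which makes the core 2 branch of O-glycans, had 0 and 0 normalised counts in BASC, 0 and 0 in AT2 cells and 145 and 51 in Club cells. It was at least 29.0-fold lower in BASC (limma adjusted p = 0.0117, lost without BASC replicate 2 at 0.0502) and at least 35.6-fold lower in AT2 (adjusted p = 0.00739). Gcnt2, which makes the blood group I branch, had 126 and 132 in BASC, 12 and 58 in AT2 cells and 664 and 561 in Club cells, 17.5-fold lower in AT2 (log2 fold change -4.46 ± 0.69 SE, adjusted p = 0.00494). Both BASC samples lay above both AT2 samples for Gcnt2, a 3.69-fold difference that was not called (adjusted p = 0.228). Gcnt3, the mucin-type branching enzyme, was not tested and had 0 in the BASC and AT2 samples and 7 and 29 in Club cells. Gcnt7 had 15 and 61 in BASC, 18 and 0 in AT2 cells and 29 and 7 in Club cells, with its highest mean in BASC, and was called in no comparison.

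Among the 19 enzymes that lengthen chains with galactose or N-acetylglucosamine, 2 were higher and 3 lower in AT2 than in Club cells, and 1 was higher and 3 lower in BASC. B3galt1 and B3gnt7, lower in both, passed the filter through the Club samples alone and could hardly be called otherwise. Over all tested genes, 8.42% were higher and 9.71% lower in AT2, and 5.77% and 5.42% in BASC. B4galt1, the main galactosyltransferase of N-glycans and a part of lactose synthase in milk, had 916 and 924 normalised counts in BASC, 1188 and 1280 in AT2 cells and 743 and 624 in Club cells. It was 1.81-fold higher in AT2 than in Club cells (limma adjusted p = 0.0126, lost without AT2 replicate 2 at 0.0618 or Club replicate 2 at 0.116). B4galt5, which makes lactosylceramide, had 141 and 91 in BASC, 29 and 46 in AT2 cells and 740 and 632 in Club cells, and the 3 groups did not overlap. It was 5.91-fold lower in BASC (adjusted p = 0.0112, lost without BASC replicate 2, Club replicate 1 or Club replicate 2 at 0.0643 to 0.121) and 18.3-fold lower in AT2 (adjusted p = 0.000808).

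B3gnt5, which extends lactosylceramide into the lacto-series, ran opposite to B4galt5, with 80 and 172 normalised counts in BASC, 144 and 201 in AT2 cells and 2 and 16 in Club cells. It was 14.0-fold higher in BASC (limma adjusted p = 0.0389, lost without any library other than Club replicate 2 at 0.0702 to 0.187) and 19.2-fold higher in AT2 (adjusted p = 0.0175, lost without AT2 replicate 1 at 0.0707 or AT2 replicate 2 at 0.0964). B3galt1, which makes type 1 chains, and B3gnt7, an enzyme of keratan sulfate, were at 0 in the BASC and AT2 samples, with 21 and 15 and with 10 and 39 normalised counts in the Club samples. B3galt1 was at least 5.32-fold lower in BASC (adjusted p = 0.0406) and at least 6.54-fold lower in AT2 (0.0286), and B3gnt7 at least 7.24-fold lower in BASC (0.05 after rounding) and at least 8.91-fold lower in AT2 (0.0357). The BASC calls of both were lost without either BASC or either AT2 replicate (0.0616 to 0.116), and the AT2 calls without either AT2 replicate (0.0921 to 0.116). B3gnt9 and B3galt2, the B3gnt and B3galt genes with the highest mean counts, were not called. B3gnt9 had 577 and 436 in BASC, 793 and 346 in AT2 cells and 375 and 482 in Club cells, and B3galt2 had 123 and 166, 109 and 59, and 227 and 125 in BASC, AT2 and Club cells.

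In heparan sulfate sulfation, Ndst1 was higher in BASC and AT2 cells and 4 of the 7 Hs3st and Hs6st genes were lower in AT2 than in Club cells. Hs6st2 and Hs6st3, among these 4, passed the filter through the Club samples alone and could hardly be called other than lower. Over all tested genes, 9.71% were called lower in AT2. Ndst1, which places the first sulfate on the chain and so opens it to the later enzymes, had 1462 and 1292 normalised counts in BASC, 1918 and 1986 in AT2 cells and 672 and 820 in Club cells. It was 1.85-fold higher in BASC (limma adjusted p = 0.0152, lost without BASC replicate 1, BASC replicate 2 or Club replicate 1 at 0.0585 to 0.114) and 2.62-fold higher in AT2 (log2 fold change 1.39 ± 0.16 SE, adjusted p = 0.00136) than in Club cells. The AT2 difference was called in every alternative run. Ndst2, the second Ndst gene of the table, had 312 and 193 in BASC, 397 and 316 in AT2 cells and 242 and 249 in Club cells and was called in no comparison.

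Hs6st2 and Hs6st3, which sulfate glucosamine, were near 0 outside Club cells. Hs6st2 had 0 and 1 normalised counts in BASC, 0 and 0 in AT2 cells and 65 and 81 in Club cells. It was called lower in BASC (log2 fold change -5.70 ± 1.07 SE, limma adjusted p = 0.0166, lost without BASC replicate 1 at 0.0544) and was at least 26.5-fold lower in AT2 (adjusted p = 0.00759). Hs6st3 had 0 and 0 in BASC, 0 and 0 in AT2 cells and 23 and 62 in Club cells, at least 12.6-fold lower in BASC (adjusted p = 0.0235, lost without either BASC replicate at 0.0651 and 0.0721) and at least 15.4-fold lower in AT2 (adjusted p = 0.0160, lost without either AT2 replicate at 0.0632 and 0.0659). Hs6st1, in contrast, had 368 and 365 in BASC, 406 and 479 in AT2 cells and 454 and 363 in Club cells and was called in no comparison.

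Of the Hs3st genes, whose enzymes add the rarest sulfate of the chain, Hs3st3b1 had 162 and 233 normalised counts in BASC, 221 and 131 in AT2 cells and 454 and 560 in Club cells. It was 2.88-fold lower in AT2 than in Club cells (limma adjusted p = 0.0255, lost without AT2 replicate 2, Club replicate 1 or Club replicate 2 at 0.0875 to 0.170). Hs3st6 had 16 and 19 in BASC, 3 and 3 in AT2 cells and 58 and 78 in Club cells, 22.7-fold lower in AT2 (adjusted p = 0.0244, lost without either AT2 or either Club replicate at 0.0524 to 0.266). BASC lay between AT2 and Club cells for Hs3st6 and overlapped AT2 for Hs3st3b1. Per kilobase of exon the 9 heparan sulfate genes summed to 371 and 364 in BASC, 444 and 435 in AT2 cells and 425 and 474 in Club cells. Ndst1 made up 45.2% of the mean sum in BASC, 53.7% in AT2 cells and 20.0% in Club cells, where Hs3st3b1 led with 23.0%.

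The Chst sulfotransferases had low counts in all 3 populations. Chst12, which sulfates chondroitin, had 110 and 34 normalised counts in BASC, 79 and 127 in AT2 cells and 6 and 8 in Club cells. It was 14.7-fold higher in AT2 than in Club cells (limma adjusted p = 0.0284, lost without either AT2 or either Club replicate at 0.0714 to 0.119). Chst14, an enzyme of dermatan sulfate, had 58 and 43 in BASC, 128 and 9 in AT2 cells and 25 and 103 in Club cells, and its replicates spread too widely to separate the groups.

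**Figure D4:**
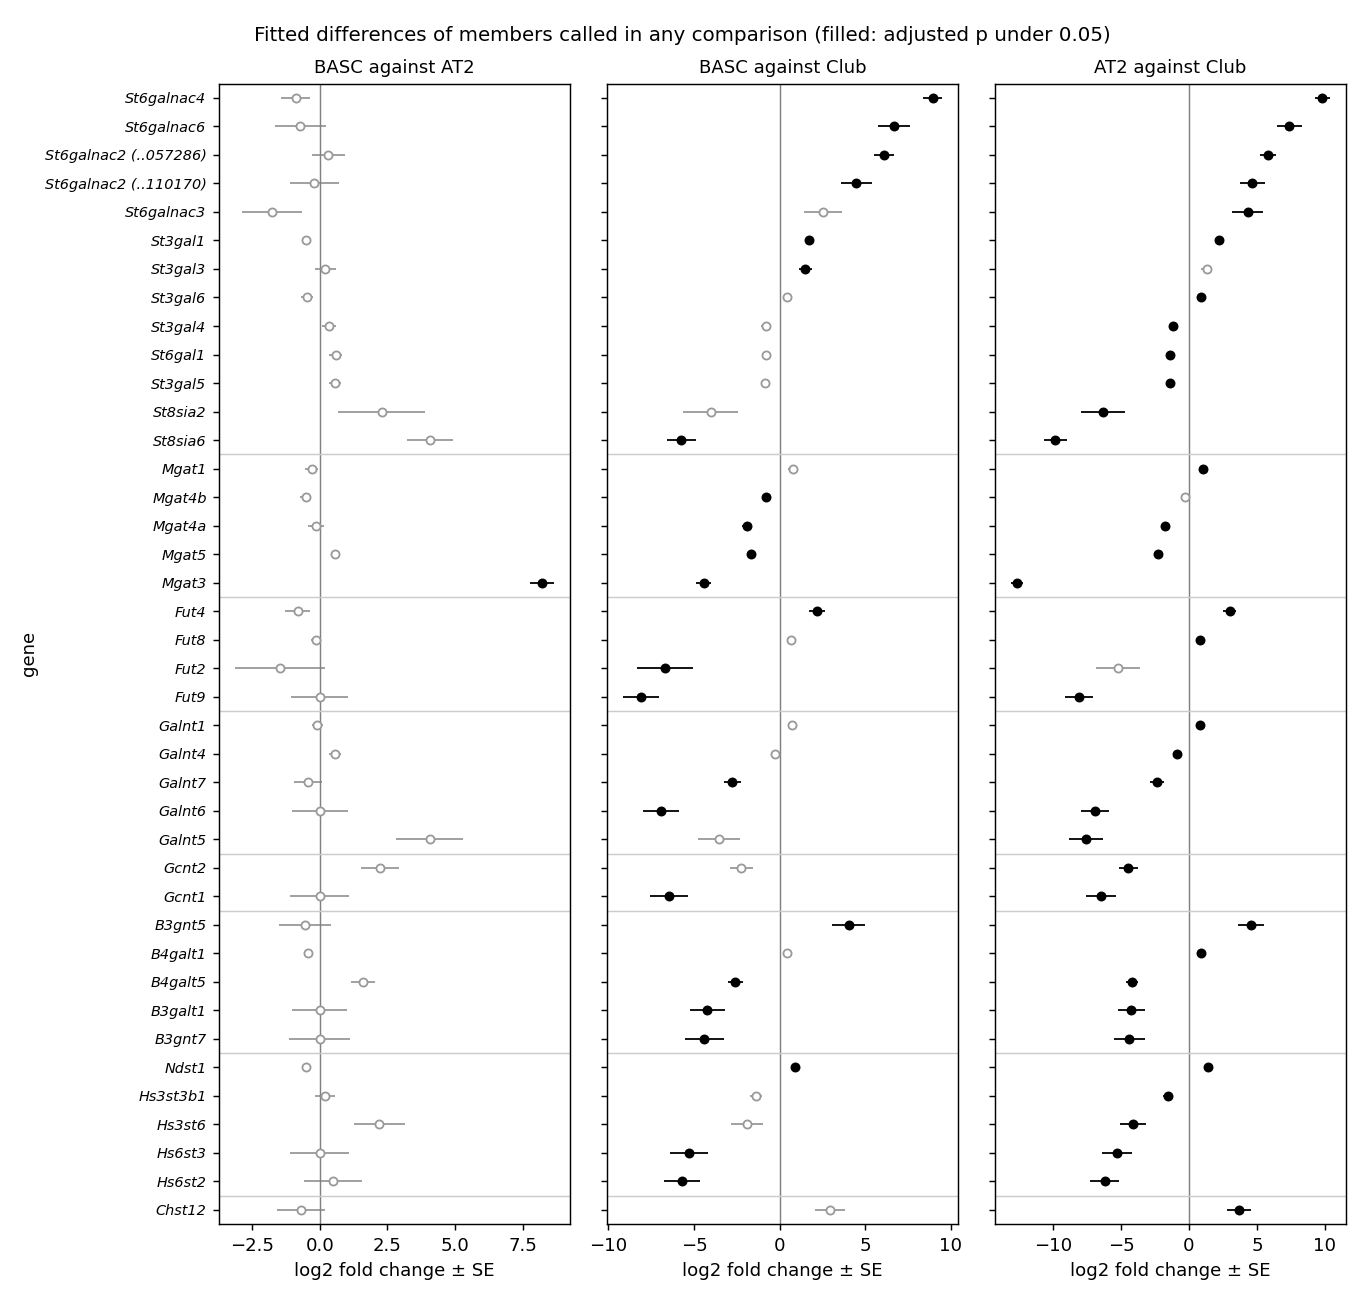
Fitted log2 fold changes with SE (limma, log2 of normalised count + 1, n = 2 samples per group) of the 40 enzyme genes called in at least 1 comparison, for BASC against AT2, BASC against Club and AT2 against Club cells, each on its own axis. Filled points have an adjusted p under 0.05: 1 in the first panel, 24 in the second and 37 in the third; values against a group at 0 depend on the pseudocount.

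The genes not tested were Chst7, Chst8, Fut1, Fut7, Fut10, Galnt15, Galnt16, Gcnt3, Gcnt4, St6galnac5, St8sia1 and St8sia4, none of which reached 10 normalised counts in 2 samples. Of the tested genes, 6 were at 0 in the BASC and AT2 samples and 3 were at 0 in the Club samples. Over all 84 genes, 44 had a mean under 100 normalised counts and 5 a mean of at least 1000. For genes of all kinds with a mean of 10 to 100, replicates differed by a median of 1.23 in BASC, 1.16 in AT2 cells and 0.71 in Club cells on the log2 scale.

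For the enzyme genes called between AT2 and Club cells, the place of BASC between these groups was read on the log2 scale, from 0 at the Club mean to 1 at the AT2 mean. This is a description with no test, since the AT2 and Club values that chose the genes set the scale. The median place was 0.81 for the 15 genes higher in AT2 and 0.72 for the 22 lower. Of these, 14 and 18 lay nearer to AT2. Among the lower genes, B3galt1, B3gnt7, Fut9, Galnt6, Gcnt1 and Hs6st3 were at 0 in every BASC and AT2 sample. Their place is that of AT2 by construction. These genes and Hs6st2 passed the filter through the Club samples alone. The median and count of the lower genes are therefore no measure of how near BASC lay to AT2. No such count over genes of all kinds is set beside them. The 4 lower genes nearer to Club cells were Mgat3, Galnt4, Galnt5 and Hs3st6, at 0.35, 0.34, 0.46 and 0.46.

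The partners of these enzymes were read from 6 lists of related genes, and limma called 0 of their 98 tested genes between BASC and AT2 cells. At an unadjusted limma p under 0.05, 8 were higher and 10 lower, against 1257 and 1079 of all 17721 tested genes. Of 26 tested genes for sugar donors and their Golgi transporters, 2 were lower in BASC and 1 in AT2 than in Club cells, and none was higher. Their median log2 fold change was -0.74 in BASC and -0.43 in AT2 against Club cells. Over all tested genes, 5.77% were called higher and 5.42% lower in BASC than in Club cells, and 8.42% and 9.71% in AT2. The calls of the donor genes were few, and they and the lists below are to be read beside these shares. With no adjustment, at a limma p under 0.05, 1 donor gene was higher and 7 were lower in BASC than in Club cells. Of all 17721 tested genes, 2001 were higher and 2352 lower at that level. For AT2 the donor counts were 0 and 6, against 2471 and 2936. Nans, which makes sialic acid, had 129 and 187 normalised counts in BASC, 292 and 165 in AT2 cells and 493 and 461 in Club cells (limma adjusted p = 0.0339 for BASC, lost without either BASC or either Club replicate at 0.0801 to 0.194). Slc35b3, which carries the sulfate donor, was 2.93-fold lower in BASC (0.0351, lost without the same libraries at 0.0779 to 0.273). Cmas, which activates sialic acid, was 2.99-fold lower in AT2 (0.0489, lost without any 1 of the BASC, AT2 or Club replicates at 0.0675 to 0.387). Of the 16 tested sialidases and other glycan hydrolases, limma called 0 against Club cells (medians of -0.25 in BASC and -0.08 in AT2). At an unadjusted limma p under 0.05, 2 were lower in BASC and 1 in AT2, against 2352 and 2936 of all 17721 tested genes.

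Proteoglycan genes were called in both directions. Chsy1, which polymerises chondroitin, had 3052 and 2480 normalised counts in BASC, 4462 and 4445 in AT2 cells and 365 and 412 in Club cells, 7.12-fold higher in BASC (limma adjusted p = 6.81e-05) and 11.5-fold higher in AT2 (adjusted p = 1.47e-05). Hspg2, the basement membrane proteoglycan perlecan, had 1692 and 1359 in BASC, 2819 and 2224 in AT2 cells and 132 and 101 in Club cells, 13.1-fold higher in BASC (adjusted p = 9.79e-05) and 21.6-fold higher in AT2 (adjusted p = 2.80e-05). Both genes were far above Club cells in every BASC and AT2 sample. Sulf2, which removes sulfate from heparan sulfate outside the cell, had 234 and 278 in BASC, 264 and 97 in AT2 cells and 1137 and 1222 in Club cells. It was 4.61-fold lower in BASC (adjusted p = 0.0217, lost without either BASC or either Club replicate at 0.0630 to 0.125) and 6.53-fold lower in AT2 (adjusted p = 0.00479).

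Of the 20 tested genes for proteoglycan chains, 3 were higher and 1 lower in BASC than in Club cells, and 4 were higher and 1 lower in AT2 (medians of -0.20 and 0.43). Besides Chsy1 and Sulf2 these were Hs2st1, which sulfates heparan sulfate (2.45-fold higher in BASC, limma adjusted p = 0.00494, and 1.71-fold in AT2, adjusted p = 0.0254), and Csgalnact2, which starts chondroitin chains (2.04-fold, 0.0236, and 1.76-fold, 0.0337). Extl3, which starts heparan sulfate chains, was 1.95-fold higher in AT2 (0.0354). The AT2 calls of Hs2st1, Csgalnact2 and Extl3 were lost without either AT2 or either Club replicate (0.0717 to 0.244), and the BASC call of Csgalnact2 without BASC replicate 2, Club replicate 1 or Club replicate 2 (0.0505 to 0.105). Of 11 tested core proteins, 2 were higher and 0 lower in BASC, and 4 were higher and 1 lower in AT2 (medians of -0.19 and 0.70).

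The syndecan Sdc4 had 9016 and 7410 normalised counts in BASC, 9370 and 8489 in AT2 cells and 3254 and 3769 in Club cells, 2.34-fold higher in BASC (limma adjusted p = 0.00192) and 2.54-fold higher in AT2 (adjusted p = 0.000745). Syndecan Sdc1 was 1.53-fold higher in AT2 (0.0338, lost without any library other than AT2 replicate 1 at 0.0730 to 0.115), and the glypican Gpc3 was 46.3-fold higher in AT2 (0.0230, lost without AT2 replicate 1, AT2 replicate 2 or Club replicate 2 at 0.0732 to 0.0997). Sdc2 was 4.40-fold lower in AT2 than in Club cells (0.0225, lost without either BASC or either Club replicate at 0.0514 to 0.0822). Perlecan and Sdc4, both carriers of heparan sulfate, were thus the 2 of 11 tested core proteins called higher in BASC, where the list median was -0.19. Any link of these carriers with the Ndst1 values above was not tested.

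Of the 10 genes that trim N-glycans ahead of the Mgat enzymes, 1 was higher and 0 lower in BASC than in Club cells, and 3 were higher and 1 lower in AT2 (medians of -0.07 and -0.04). The Golgi mannosidase Man1a had 839 and 908 normalised counts in BASC, 2019 and 1659 in AT2 cells and 339 and 250 in Club cells, 2.97-fold higher in BASC (limma adjusted p = 0.00423) and 6.24-fold higher in AT2 (adjusted p = 0.000225). Its relative Man1c1 ran the other way, with 521 and 484 in BASC, 256 and 244 in AT2 cells and 829 and 673 in Club cells, 3.0-fold lower in AT2 (adjusted p = 0.00278). Man2a2 and Man2a1, which trim the chain between the Mgat1 and Mgat2 steps, were 2.83-fold (adjusted p = 0.00462) and 1.89-fold (adjusted p = 0.00951, lost without Club replicate 1 at 0.0503) higher in AT2. Among 15 tested genes for other O-glycans and gangliosides, 2 were lower in BASC and 2 in AT2 than in Club cells (medians of -0.42 and -0.27). The ganglioside enzyme B4galnt1 had 541 and 456 in BASC, 599 and 566 in AT2 cells and 1071 and 1038 in Club cells. It was 2.12-fold lower in BASC (adjusted p = 0.0107, lost without BASC replicate 2, Club replicate 1 or Club replicate 2 at 0.0561 to 0.0950) and 1.81-fold lower in AT2 (adjusted p = 0.0180, lost without either AT2 or either Club replicate at 0.0532 to 0.150). Lfng, which extends fucose on Notch receptors, was at least 19.5-fold lower in BASC (0.0406, lost without either BASC or either Club replicate at 0.130 to 0.387), and Pomt1, which starts O-mannose chains, 3.88-fold lower in AT2 (0.0241, lost without either AT2 or either Club replicate at 0.0586 to 0.182).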

How the data were processed

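RNA of 6 sorted samples was sequenced. Per the submitters' processing notes, FastQC, STAR 2.4.0a and featureCounts 1.4.5-p1 of Subread were used with mm10 (GRCm38). The deposited signal values are whole numbers that the authors made from gene counts by a normalization whose method, like the strand setting and annotation release, is not given in the sources used here. Without strand, reads of overlapping genes on opposite strands cannot be told apart.

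Groups follow the labels. Genes that reached 10 in 2 or more samples were analysed as log2(value + 1), in 1 fit of the 6 samples by group with limma 3.58.1 under R 4.3.3 (eBayes with a trend, 3 residual and 4.20 prior degrees of freedom, checked on simulated data), 2-sided, with Benjamini-Hochberg adjustment over 17721 genes. Lost calls give the adjusted p without the library named; where that leaves a group with 1 sample, it is assumed to vary like the others. Tables were made with Python 3.11.15, pandas 2.3.3 and numpy 2.4.6. Folds are ratios of group means; for a group at 0 the mean over its samples of 3 reads per library stands in, covering counting error only. Such genes' fitted changes depend on the pseudocount. Exon lengths are from GENCODE M21, which held all 84 genes, 62 at the deposited coordinates. Promoters are from RefSeq, which listed 64 of the 83 symbols.

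Named were called members (up to 25 per direction), the highest member per family, up to 6 called genes per list and direction, and members not tested. Members, lists and tests were chosen with earlier results of these data known.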

Additional observations from a re-analysis of the deposited data

How the results depend on the processing

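Alternatives to the pseudocount, filter, scaling, samples in the fit, variance trend and gene biotypes, a replicate block, and fits without each library gave 947 repeats of the 62 called differences. Of these, 779 kept the call, 168 lost it and 0 changed sign, and 23 differences were called in every alternative that could be fitted. The count higher in BASC than in AT2 cells, 1, became 2 with a mean of at least 50, where St8sia6 joined Mgat3 (limma adjusted p = 0.0267), 0 in a fit of those 2 groups alone, and 0 to 1 without single libraries. Without the variance trend, the genes called higher against Club cells numbered 5 rather than 9 for BASC and 9 rather than 15 for AT2. Leaving out single libraries gave 3 to 8 higher and 2 to 16 lower in BASC than in Club cells, and 7 to 14 higher and 7 to 24 lower in AT2 than in Club cells. Calls over all tested genes moved in these fits too. The cause of these changes was not tested, and fits without a library also test fewer genes and have fewer samples. With quantile normalization the median of all genes was 0.01 for BASC and 0.03 for AT2 against Club cells, against -0.10 as reported. With the replicate block, calls numbered 1 and 0, 9 and 13, and 14 and 20 (higher and lower, in the order of the comparisons). Same-numbered samples did not deviate together (correlations of 0.006 to 0.012), and the labels do not say that a number marks a shared animal or day. With 2 samples a group and many genes near 0, depth and spread limit the genes under 100 normalised counts.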
